A study of Arabidopsis with 4 samples.

Results

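Eukaryotic translation initiation factors (eIFs) are the proteins that bring the initiator tRNA, the mRNA and the ribosomal subunits together at a start codon. Genes were taken as initiation factors where the description in the deposited table holds the phrase "eukaryotic translation initiation factor" or "eukaryotic initiation factor", and where the mean over all 4 libraries was at least 1 TPM (a level scaled to transcript length and to a common total per library). Of 32833 genes in the table, 56 carried the wording and 51 of these also reached the mean, out of 19764 genes that did so in all. The members lay on all 5 chromosomes, with 18 on chromosome 1, 5 on chromosome 2, 9 on chromosome 3, 6 on chromosome 4 and 13 on chromosome 5 in the RefSeq gene table.

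Transcript levels came from RNA sequencing of Arabidopsis seedlings of the Col-0 ecotype, 12 days old and grown on medium with 1% sucrose at 23 °C in days of 16 h light and 8 h dark. The mutant jmj28-2 (n = 2 libraries), named for the JmjC-domain protein JMJ28, was compared with the wild type Col-0 (n = 2 libraries), and the comparison asks which transcripts differ when JMJ28 is mutated. No source used here gives the nature of the mutation or says whether the replicates are separate cultures of seedlings. The p-values therefore rest on a spread between libraries that may be only technical.

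In the cap-dependent pathway, eIF4E binds the mRNA cap, the scaffold eIF4G joins it to the helicase eIF4A, and eIF4B assists the helicase. The small ribosomal subunit arrives carrying eIF3, a scaffold of many subunits, together with eIF1, eIF5 and the eIF2 complex that holds the initiator tRNA. eIF5 then triggers GTP hydrolysis on eIF2, and eIF2B recharges eIF2 with GTP. Plants also have isoforms of eIF4E and eIF4G, named eIF(iso)4E and eIF(iso)4G. All growing cells need these factors, and plants lacking some of them grow poorly or die as embryos.

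JMJ28 itself, listed as B160 in the table, had 5.45 and 5.72 TPM in jmj28-2, against 7.63 and 7.70 TPM in Col-0 (log2 change -0.40, SE 0.0963, limma adjusted p = 0.235). The mutant libraries were thus the lower ones, without overlap, and the transcript was still present in them. Since depth is not recorded in TPM, no counting interval is given. Markers were used to describe the libraries, and 0 of them were listed at 0 in any library. The 14 root markers summed to 1819 to 2251 TPM in jmj28-2 and 2095 to 2145 TPM in Col-0, with 10 of 14 lower in the jmj28-2 mean. The low sum was that of jmj28-2 replicate 2. Its root markers had a median log2 difference of -0.31 from the mean of the Col-0 libraries, while those of jmj28-2 replicate 1 had 0.0031. The sum of jmj28-2 replicate 1 lay above both Col-0 sums, but most of each sum came from the marker BGLU23. That gene had 2077 and 1702 TPM in jmj28-2, against 1967 and 1923 TPM in Col-0. The 6 green-tissue markers summed to 47503 to 51307 TPM in jmj28-2 and 50718 to 51814 TPM in Col-0, with 5 of 6 lower. RBCS-1A and LHCB1.1, the largest terms of this sum, overlapped between the genotypes. Among single green-tissue markers, 4 of 6 had their higher jmj28-2 value under the lower Col-0 value, where 17.6% of all genes tested did. With limma, 2 of the 6 were lower at an unadjusted p under 0.05 (4.36% over all genes tested), and 0 were called. The 6 markers of dividing cells summed to 132.8 to 148.8 TPM in jmj28-2 and 136.9 to 138.0 TPM in Col-0, with 3 of 6 lower. In whole seedlings, fewer cells of a type and less RNA per cell cannot be told apart, and the part of these markers in the values below was not tested.

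Most initiation factor transcripts had a slightly higher mean in jmj28-2, and none differed by enough to be called. The 51 members together reached 3382 and 3254 TPM in jmj28-2, against 3096 and 3024 TPM in Col-0. Both jmj28-2 sums lay above both Col-0 sums, at a ratio of means of 1.08 (3318 ± 90.4 TPM in jmj28-2 and 3060 ± 50.9 TPM in Col-0, SD, n = 2 each). An exact permutation test of 2 libraries against 2 gave a two-sided p of 0.333, the smallest this design allows. As a share of all transcripts in the table, the members took 0.339% and 0.326% in jmj28-2, against 0.310% and 0.303% in Col-0.

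Gene by gene, 42 of the 51 members had a higher mean on the log2(TPM + 1) scale in jmj28-2 and 9 a lower one. The median log2 change was 0.12, where over all 19764 genes tested it was 0.03 and 57.3% of genes were higher. Set against the mean of the Col-0 libraries, the members' median was 0.14 for replicate 1 of jmj28-2 and 0.11 for its replicate 2, while the median of all genes tested was 0.06 for the first and 0.0016 for the second. Between the libraries of a genotype, the median absolute log2 difference of single members was 0.07 in jmj28-2 and 0.06 in Col-0.

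With limma, 0 members were called higher and 0 lower at an adjusted p under 0.05 over all genes. Over all genes tested, 0.0405% were called higher and 0.0354% lower, and the smallest adjusted p of a member was 0.186. At an unadjusted p under 0.05, limma found 10 members higher, where the share over all genes was 9.5%, and 2 members lower, where it was 4.36%. After quantile normalization the split was 5 higher and 3 lower (1422 and 1364 over all genes), with a median change of 0.0747 (-0.0047 over all genes). After median rescaling the split was 7 higher and 3 lower (1457 and 1315 over all genes). Without the trend, 2 members were higher, where the share over all genes was 8.3%. The count of 10 higher members fell whichever library was left out, most without Col-0 replicate 2. The count of 2 lower members fell without jmj28-2 replicate 2 and without either Col-0 library.

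Counting libraries rather than fits, both jmj28-2 libraries were above both Col-0 libraries for 33 of 51 members (64.7%), where 29% of all genes tested showed this. They were below both for 3 members, where the share over all genes was 17.6%, and the remaining 15 members overlapped. Replicate 1 of jmj28-2 exceeded the mean of the Col-0 libraries for 45 members and replicate 2 for 39. Most members are abundant, and among the 15087 genes with a mean of at least 5 TPM, 31.1% had both jmj28-2 libraries above both Col-0 libraries and 59.2% had a log2 change above 0.

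**Figure D1:**
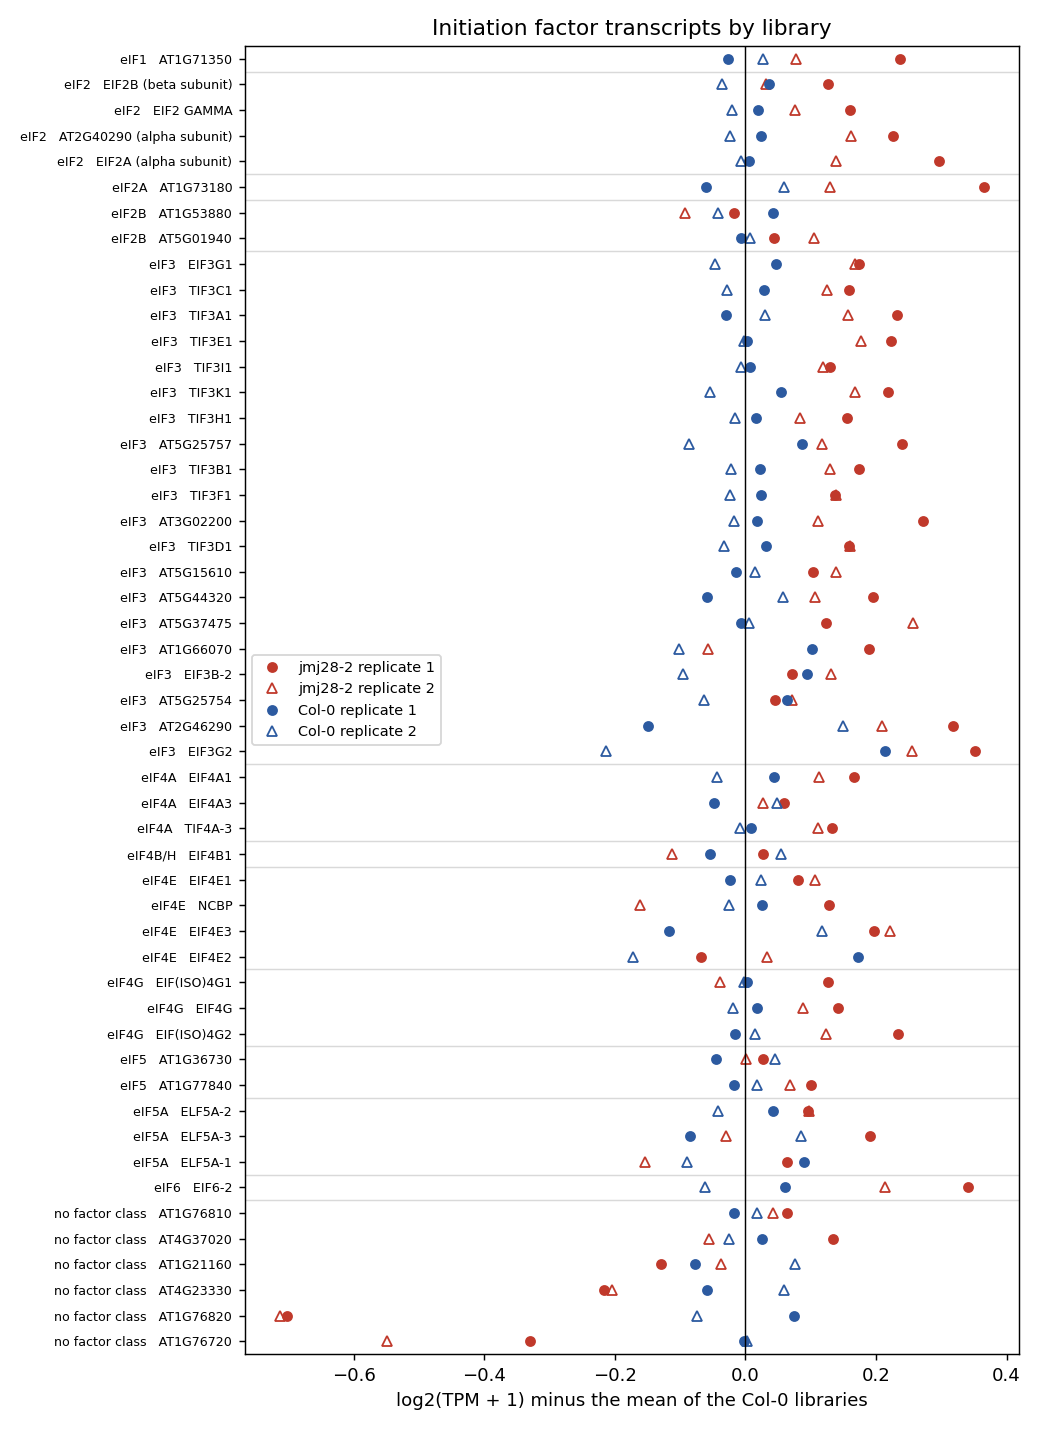
Each row is 1 of the 51 initiation factor genes, grouped by factor class, and each point is 1 library, as log2(TPM + 1) minus the mean of the Col-0 libraries; filled circles are replicate 1 and open triangles replicate 2, in red for jmj28-2 and blue for Col-0. All 20 eIF3 rows have a jmj28-2 mean to the right of the Col-0 mean at 0, and AT1G76820 and AT1G76720 lie far to the left.

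**Figure D2:**
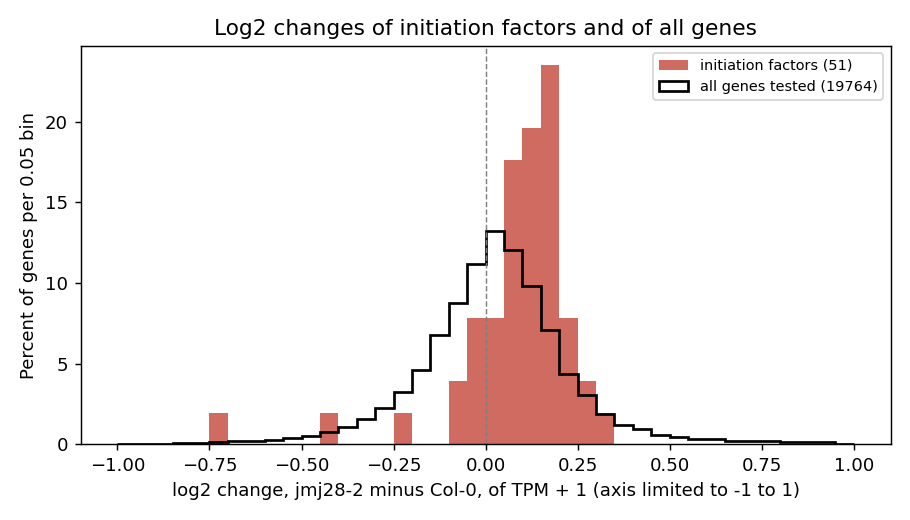
Log2 change of TPM + 1 (jmj28-2 minus Col-0) on the horizontal axis against the percent of genes per bin, for the 51 initiation factors (filled bars) and all 19764 genes tested (outline), with the axis limited to -1 to 1. The bulk of the initiation factors sits to the right of the peak of all genes, around a median of 0.12, with 2 members beyond -0.4.

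The eIF3 complex was the largest class, with 20 members for 13 subunits, and all 20 had a higher mean in jmj28-2. Summed over the class, eIF3 transcripts reached 1171 and 1134 TPM in jmj28-2, against 1047 and 1014 TPM in Col-0, a ratio of 1.12. The median log2 change of its members was 0.16, both jmj28-2 libraries lay above both Col-0 libraries for 17 of 20 (29% over all genes tested), and 7 of 20 were higher at an unadjusted p under 0.05 (9.5% over all genes tested). The count of 7 was 2 after quantile normalization, 4 after median rescaling and 1 without the trend. Over all genes tested, the shares in these settings were 7.19%, 7.37% and 8.3%. The count of 7 also fell whichever library was left out. All 20 were higher under each alternative normalization, pseudocount and fitting, while without jmj28-2 replicate 1 there were 19 and without Col-0 replicate 2 there were 18.

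When the copies of a subunit were added up, both jmj28-2 libraries lay above both Col-0 libraries for all 13 subunits, and the ratios ran only from 1.09 for subunit H to 1.15 for subunit E. Adding up hid some overlap, since EIF3B-2, AT1G66070 and AT5G25754, copies for B, J and L, overlapped as single genes. Gene by gene, 29% of all genes tested had both jmj28-2 libraries above both Col-0 libraries, and no such share was computed for sums. Levels differed more between subunits than between genotypes. Subunit means ran from 58.7 TPM for J to 109.4 TPM for G in jmj28-2, and from 53.1 TPM for J to 96.6 TPM for G in Col-0.

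**Figure D3:**
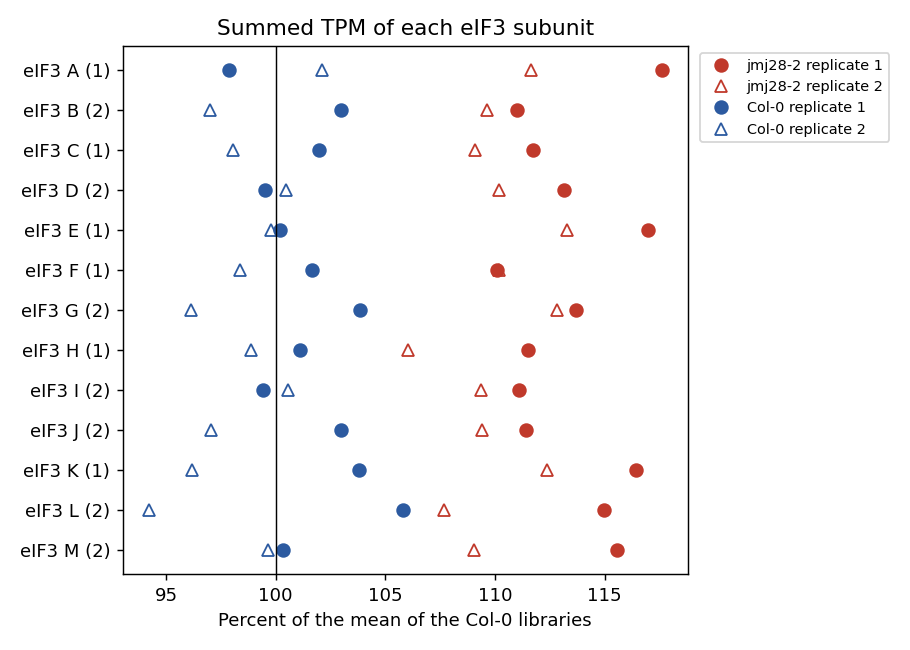
Summed TPM of each eIF3 subunit (number of member genes in brackets) as a percent of the mean of the Col-0 libraries, with 1 point per library; red is jmj28-2 and blue is Col-0, filled circles replicate 1 and open triangles replicate 2. For all 13 subunits the red points lie to the right of the blue ones, and the ratios of means run from 1.09 to 1.15. Gene by gene, 17 of the 20 eIF3 members and 29% of all genes tested had both jmj28-2 libraries above both Col-0 libraries.

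TIF3E1 encodes subunit E, the member of this complex also known as INT6, and had 92.77 and 89.83 TPM in jmj28-2, against 79.47 and 79.15 TPM in Col-0. The Col-0 libraries were nearly equal and both jmj28-2 libraries lay above them (log2 change 0.20, SE 0.0545, limma adjusted p = 0.257). TIF3A1, the largest subunit of the complex, had 93.69 and 88.93 TPM in jmj28-2, against 77.96 and 81.36 TPM in Col-0 (log2 change 0.19, limma adjusted p = 0.289). TIF3K1, for subunit K, had 89.83 and 86.69 TPM in jmj28-2, against 80.09 and 74.21 TPM in Col-0 (limma adjusted p = 0.308). In each of these the groups did not overlap, but the genes were named for their small p, a choice that favours this.

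Subunit G, an RNA-binding subunit, had the most abundant eIF3 transcript. EIF3G1 had 104.44 and 103.99 TPM in jmj28-2, against 95.52 and 89.54 TPM in Col-0 (log2 change 0.17, limma adjusted p = 0.321). TIF3D1, for subunit D, which can bind the mRNA cap in human cells, had 54.58 and 54.63 TPM in jmj28-2, against 49.90 and 47.68 TPM in Col-0 (limma adjusted p = 0.341). TIF3B1, for the core scaffold subunit B, had 63.63 and 61.68 TPM in jmj28-2, against 57.18 and 55.37 TPM in Col-0 (limma adjusted p = 0.35). The loosely held subunit J, from AT5G37475, had 32.59 and 35.85 TPM in jmj28-2, against 29.71 and 29.97 TPM in Col-0 (limma adjusted p = 0.354). Both jmj28-2 libraries were the higher ones for all 4 of these genes, which were also among those with the smallest p. Their lack of overlap therefore adds nothing to the counts for the class.

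Of the 13 subunits, 7 had 2 member genes, and the copies were unequally expressed. Over all 4 libraries EIF3G1 averaged 21.4 times the level of EIF3G2, and TIF3I1 9.94 times that of AT2G46290, its direct neighbour on chromosome 2. For subunits D, J and M the ratio of the more to the less abundant copy was 1.34, 1.34 and 1.45. Of the class, the weak copies for G and I differed most between the Col-0 libraries on the log2 scale. EIF3G2 had 5.35 and 4.94 TPM in jmj28-2, against 4.77 and 3.29 TPM in Col-0 (log2 change 0.30, SE 0.175, limma adjusted p = 0.508), and the change was 0.52 without Col-0 replicate 1 and 0.09 without Col-0 replicate 2. AT2G46290 had 9.64 and 8.87 TPM in jmj28-2, against 6.70 and 8.47 TPM in Col-0 (log2 change 0.26, SE 0.131, limma adjusted p = 0.447), and the change was 0.11 without Col-0 replicate 1 and 0.41 without Col-0 replicate 2. In both, the Col-0 libraries differed from each other by more than the jmj28-2 libraries did, so the size of each change rests on which Col-0 library is used. The L genes AT5G25757 and AT5G25754 carry the same protein entry in the table, so the division of reads between them is uncertain. Their sum was 93.86 and 87.92 TPM in jmj28-2, against 86.36 and 76.91 TPM in Col-0.

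The eIF2 complex, which carries the initiator tRNA and whose alpha subunit is the target of the stress kinase GCN2, had 4 members, all with a higher mean in jmj28-2. Their sum was 241.6 and 226.9 TPM in jmj28-2, against 216.5 and 209.0 TPM in Col-0, a ratio of 1.10. The alpha subunit genes had the lowest p-values. AT2G40290 had 66.77 and 63.81 TPM in jmj28-2, against 57.88 and 55.98 TPM in Col-0 (log2 change 0.19, SE 0.06, limma adjusted p = 0.288). The other alpha gene, AT5G05470, which the table names EIF2A, had 24.22 and 21.60 TPM in jmj28-2, against 19.62 and 19.45 TPM in Col-0 (log2 change 0.22, SE 0.0824, limma adjusted p = 0.345), with a change of 0.14 without jmj28-2 replicate 1. For both alpha genes the groups did not overlap. The same held for the gamma subunit gene EIF2 GAMMA, with 73.97 and 69.75 TPM in jmj28-2, against 67.03 and 65.19 TPM in Col-0. Only the beta subunit gene AT5G20920, named EIF2B in the table, overlapped, and narrowly. It had 76.68 and 71.73 TPM in jmj28-2, against 71.92 and 68.38 TPM in Col-0 (limma adjusted p = 0.632).

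AT1G73180 encodes eIF2A, a separate protein that can deliver initiator tRNA in mammals, and had 23.87 and 20.12 TPM in jmj28-2, against 17.53 and 19.13 TPM in Col-0 (log2 change 0.25, SE 0.106, limma adjusted p = 0.39), with a change of 0.13 without jmj28-2 replicate 1. The 2 members described as eIF2B family proteins did not share a direction. AT1G53880 had 21.52 and 20.38 TPM in jmj28-2, against 22.48 and 21.14 TPM in Col-0 (limma adjusted p = 0.782), and AT5G01940 had 2.46 and 2.61 TPM in jmj28-2, against 2.34 and 2.37 TPM in Col-0 (limma adjusted p = 0.857). AT1G71350, of the SUI1 family to which the start-codon factor eIF1 belongs, had 12.4 and 11 TPM in jmj28-2, against 10.17 and 10.59 TPM in Col-0 (limma adjusted p = 0.525). It was the only gene of the eIF1 class, placed there by the family name alone, and whether it acts as eIF1 was not tested.

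**Figure D4:**
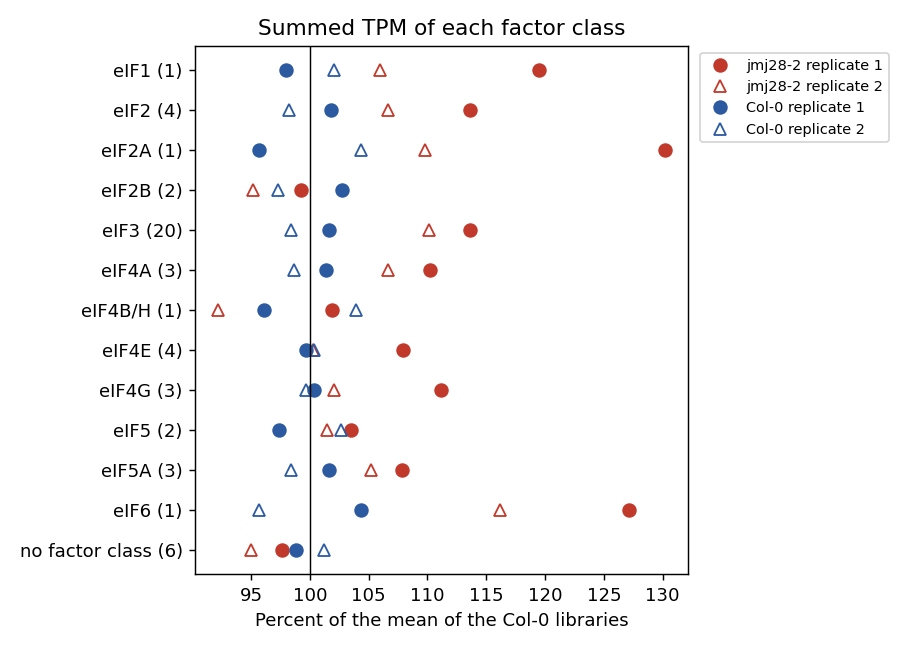
Summed TPM of each factor class (number of member genes in brackets) as a percent of the mean of the Col-0 libraries, with 1 point per library; red is jmj28-2 and blue is Col-0, filled circles replicate 1 and open triangles replicate 2. Both red points lie to the right of both blue points for 8 of the 12 classes, and the points overlap for eIF2B, eIF4B/H, eIF4E and eIF5. Among the 8, the classes eIF1, eIF2A and eIF6 hold 1 gene each. Gene by gene, 29% of all genes tested showed both jmj28-2 libraries above both Col-0 libraries.

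Among the factors that load the mRNA, the sums of the helicase and the scaffold were higher without overlap, and the sum of the cap-binding proteins overlapped narrowly. In each of these classes some genes overlapped and others did not. The eIF4A members summed to 390.3 and 377.6 TPM in jmj28-2, against 359.1 and 349.2 TPM in Col-0. EIF4A1 made up 71.7% of this in jmj28-2 and 70.6% in Col-0, with 280.54 and 270.16 TPM in jmj28-2, against 257.57 and 242.34 TPM in Col-0 (log2 change 0.14, SE 0.059, limma adjusted p = 0.384). EIF4A3, a related helicase of the exon junction complex, had 87.31 and 85.39 TPM in jmj28-2, against 81.04 and 86.64 TPM in Col-0, so that its groups overlapped. EIF4B1 had 22.90 and 20.71 TPM in jmj28-2, against 21.60 and 23.35 TPM in Col-0 (log2 change -0.04, limma adjusted p = 0.861), and its sign turned without jmj28-2 replicate 2 or Col-0 replicate 2.

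Cap-binding transcripts of the eIF4E class summed to 141.7 and 131.7 TPM in jmj28-2, against 130.9 and 131.8 TPM in Col-0. The groups thus overlapped only between the replicates numbered 2. As single genes, EIF4E1 and EIF4E3 were higher without overlap, while NCBP and EIF4E2 overlapped. EIF4E1, the main copy, had 63.67 and 64.80 TPM in jmj28-2, against 59.14 and 61.16 TPM in Col-0 (log2 change 0.09, SE 0.057, limma adjusted p = 0.529). NCBP, a cap-binding protein of a separate branch, had 63.17 and 51.50 TPM in jmj28-2, against 58.74 and 56.72 TPM in Col-0, with the jmj28-2 libraries on either side of the Col-0 ones. Of the scaffolds, EIF4G had 46.32 and 44.57 TPM in jmj28-2, against 42.43 and 41.33 TPM in Col-0. EIF(ISO)4G2 had 25.12 and 23.18 TPM in jmj28-2, against 20.97 and 21.44 TPM in Col-0, also without overlap. EIF(ISO)4G1, the most abundant of the class, had 79.33 and 70.62 TPM in jmj28-2, against 72.68 and 72.42 TPM in Col-0 (log2 change 0.04, limma adjusted p = 0.83), and its sign turned after quantile normalization and without jmj28-2 replicate 1.

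Of the factors that act after start-codon recognition or on the large ribosomal subunit, the eIF6 gene stood highest in ratio. eIF6 keeps the large subunit from joining the small one and serves in its maturation. EIF6-2 had 65.46 and 59.83 TPM in jmj28-2, against 53.72 and 49.27 TPM in Col-0, at 62.6 ± 3.98 TPM in jmj28-2 and 51.5 ± 3.15 TPM in Col-0 (SD, n = 2 each). The ratio was 1.22 and the groups did not overlap, but the difference did not pass (log2 change 0.28, SE 0.0779, limma adjusted p = 0.262). For eIF5, AT1G36730 had 87.11 and 85.49 TPM in jmj28-2, against 82.77 and 88.19 TPM in Col-0 (log2 change 0.01, limma adjusted p = 0.937), with a sign that turned after both rescalings and without Col-0 replicate 1.

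eIF5A, named as an initiation factor but known to act mainly in elongation and termination, held the most abundant member. ELF5A-2 had 759.36 and 760.24 TPM in jmj28-2, against 731.96 and 690.34 TPM in Col-0 (log2 change 0.10, SE 0.0571, limma adjusted p = 0.52), with a change of 0.054 without Col-0 replicate 2. This gene supplied 22.9% of all member transcripts in jmj28-2 and 23.2% in Col-0. Without it, the other 50 members summed to 2623 and 2494 TPM in jmj28-2, against 2364 and 2334 TPM in Col-0, a ratio of 1.09. ELF5A-3, the next in level, had 152.36 and 130.69 TPM in jmj28-2, against 125.72 and 141.53 TPM in Col-0, and overlapped.

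There were 6 members with no factor class in their description, and these held the lowest log2 changes. Of these, 4 are described as eIF-2 family proteins, with no subunit named, and were not counted with the eIF2 complex. AT1G76820 had 3.11 and 3.08 TPM in jmj28-2, against 6.04 and 5.35 TPM in Col-0, or 3.10 ± 0.0212 TPM in jmj28-2 and 5.70 ± 0.488 TPM in Col-0 (SD, n = 2 each). At a ratio of 0.543 it had the largest difference and the smallest p of all 51 members, but it did not pass (log2 change -0.71, SE 0.123, 95% interval -1.02 to -0.40, limma adjusted p = 0.186). AT1G76720 had 1.78 and 1.39 TPM in jmj28-2, against 2.49 and 2.50 TPM in Col-0 (log2 change -0.44, SE 0.171, limma adjusted p = 0.358). In both genes the jmj28-2 libraries lay below the Col-0 libraries.

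The abundant member of that family had a slightly higher mean. AT1G76810, the direct neighbour of AT1G76820 on chromosome 1 with 0 genes between them, had 51.13 and 50.38 TPM in jmj28-2, against 48.25 and 49.50 TPM in Col-0 (log2 change 0.05, SE 0.0577, limma adjusted p = 0.719). AT1G76820 made up 5.73% and 5.76% of the summed level of these neighbours in jmj28-2, against 11.1% and 9.75% in Col-0. Their sum was 54.24 and 53.46 TPM in jmj28-2, against 54.29 and 54.85 TPM in Col-0, a ratio of 0.987. Over the family, the sum was 64.85 and 64.33 TPM in jmj28-2, against 65.98 and 67.69 TPM in Col-0. Reads from related genes are divided among copies by estimation, so values of the weak family members are uncertain, and whether the division of reads differed between libraries was not tested.

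The other members without a factor class are known from a best match alone. AT4G23330, matched to eIF3A, had 8.18 and 8.26 TPM in jmj28-2, against 9.24 and 10.11 TPM in Col-0, the next lowest log2 change at -0.21 (SE 0.0919, limma adjusted p = 0.394). The groups did not overlap. AT4G37020, matched to eIF4A-III, had 14.11 and 12.25 TPM in jmj28-2, against 13.02 and 12.53 TPM in Col-0, with overlap.

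**Figure D5:**
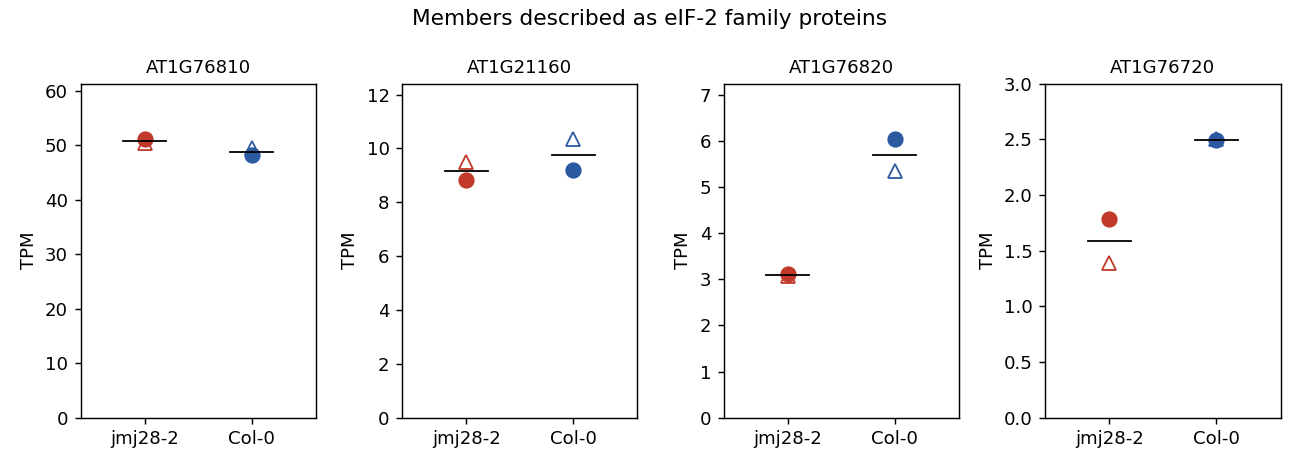
TPM (vertical axes, from 0, each panel with its own scale) of the 4 members described as eIF-2 family proteins in jmj28-2 (left, red) and Col-0 (right, blue); filled circles are replicate 1, open triangles replicate 2 and bars the means of 2 libraries. AT1G76820 and AT1G76720 are lower in both jmj28-2 libraries, AT1G76810 is slightly higher and AT1G21160 overlaps.

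By level, of the 21 members with a mean from 50 to under 100 TPM, 20 were higher in jmj28-2. So were 16 of the 19 from 10 to under 50 TPM and all 3 at 100 TPM or more. Over all genes tested, 57.3% were higher, and 59.2% of those with a mean of at least 5 TPM. Of the 8 members under 10 TPM, 3 were higher and 5 lower. Among those 5 were the eIF-2 family genes AT1G76820, AT1G76720 and AT1G21160, and no test of direction against level was made. The lowest members inside the threshold were AT1G76720, with a mean of 2.04 TPM over the 4 libraries, and AT5G01940, with 2.445 TPM. The first gene outside it was AT1G53900, an eIF2B family gene at 0.23 and 0.00 TPM in jmj28-2 and 0.28 and 0.31 TPM in Col-0. EIF6-1 and TIF3C2, second copies for eIF6 and eIF3 subunit C, lay between 0.00 and 0.20 TPM in every library, and AT2G27700 and AT5G57650 were listed at 0 throughout.

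Genes that work with the initiation factors were read from lists of 19 genes, of which 16 were tested and 0 were called in either direction. At an unadjusted p under 0.05, limma found 3 higher and 1 lower (9.5% and 4.36% over all genes tested), and the median log2 change was 0.06 (0.03 over all genes tested). The count of 3 was 2 after quantile normalization (7.19% over all genes tested) and 1 without the trend (8.3% over all genes tested). It fell without jmj28-2 replicate 1 and without either Col-0 library, and the count of 1 lower also fell without either Col-0 library. Among poly(A)-binding and cap-binding partners, 6 of 8 tested genes were higher, where 57.3% of all genes tested were. PAB4, a poly(A)-binding protein that contacts eIF4G, had 96.79 and 90.30 TPM in jmj28-2, against 76.15 and 71.58 TPM in Col-0 (log2 change 0.34, SE 0.0669, limma adjusted p = 0.213). ABCE2, of the family that splits ribosomes for a new round, had 69.90 and 69.24 TPM in jmj28-2, against 61.04 and 61.58 TPM in Col-0 (limma adjusted p = 0.283).

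Among 8 genes of translation control by the TOR and GCN2 kinases, 5 were higher and 3 lower, where 57.3% of all genes tested were higher. ABCF3, related to the yeast GCN2 partner GCN20, had 44.50 and 42.39 TPM in jmj28-2, against 39.02 and 37.19 TPM in Col-0 (limma adjusted p = 0.325). ATPK1, a ribosomal protein S6 kinase downstream of TOR, was lower in both jmj28-2 libraries, with 55.27 and 46.65 TPM in jmj28-2, against 63.05 and 65.21 TPM in Col-0 (log2 change -0.33, SE 0.0939, limma adjusted p = 0.266), with a change of -0.21 without jmj28-2 replicate 2. TOR itself had 20.23 and 17.51 TPM in jmj28-2, against 19.88 and 18.95 TPM in Col-0, and GCN2 had 8.51 and 7.77 TPM in jmj28-2, against 7.03 and 7.47 TPM in Col-0.

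Ribosomal protein genes lay in the same direction. Of 192 cytosolic ribosomal protein genes tested, 186 had a higher mean in jmj28-2, with a median log2 change of 0.18. Over all genes tested, 57.3% were higher and the median was 0.03. Both jmj28-2 libraries lay above both Col-0 libraries for 83.3% of them and for 64.7% of the initiation factors, where 29% of all genes tested showed this. With limma, 0 of the 192 were called in either direction, and 95 were higher and 1 lower at an unadjusted p under 0.05 (9.5% and 4.36% over all genes tested). The count of 95 was 59 after median rescaling (7.37% over all genes tested) and 34 without the trend (8.3% over all genes tested). It also fell without either jmj28-2 library and, most of all, without Col-0 replicate 2. Over these genes, Col-0 replicate 1 lay above Col-0 replicate 2 by a median log2 difference of 0.11. The difference between the gene groups was not tested.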

How the data were processed

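RNA was measured in 4 libraries, 2 of jmj28-2 and 2 of Col-0. The table that the authors deposited is labelled FPKM, but each library sums to between 998943 and 999014, and its values were therefore read as TPM. The submitters' processing notes name the build TAIR10 and the tools TopHat, edgeR and RSEM. Not given in the sources used here: tool versions, annotation, filters and use of strand. Depth cannot be read from TPM, and abundant transcripts lower the values of others.

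Genes with a mean of at least 1 TPM were fitted as log2(TPM + 1) in R 4.3.3 with limma 3.58.1, on genotype alone and with an intensity trend (2 residual and 3.18 prior degrees of freedom), two-sided, with Benjamini-Hochberg adjustment over all genes tested and calls at an adjusted p under 0.05. The log2 scale with a pseudocount of 1 understates changes of low genes. The fit was also run on simulated data, with planted changes larger than that of any member. That run therefore cannot show how well changes of the size seen here are called. Figures used matplotlib 3.10.9. Factor classes came from the descriptions.

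Full statistics were given by rule to the highest member of each class, the 12 members with the smallest p, the 3 largest changes each way, the lowest members inside the threshold and the 4 pathway genes with the smallest p; the other genes named were chosen after their values were seen. Members and lists were chosen with earlier results of these data known. Gene names and neighbours came from the table and from RefSeq (TAIR10.1), which matched 51 of 51 members; its coordinates were not used. Sequences are not shown. Alternatives were another pseudocount, other filters, rescalings and fits, the replicate number as a term, and leaving out each library.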

Additional observations from a re-analysis of the deposited data

How the results depend on the processing

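Under every setting run, 0 members were called higher or lower, the members' median log2 change stayed above 0 and the smallest adjusted p of a member ran from 0.136 (robust fitting) to 0.604 (without Col-0 replicate 2). The median log2 change, 0.12 as reported, was 0.0747 after quantile normalization and 0.0869 after median rescaling, and 0.10 to 0.14 when 1 library was left out. The median over all genes tested, 0.03 as reported, was -0.0047 after quantile normalization and -0.0025 after median rescaling. The count at an unadjusted p under 0.05 and higher in jmj28-2, 10 as reported, was 5 after quantile normalization and 2 without the trend, and 1 to 9 when 1 library was left out. The count lower, 2 as reported, became 1 when the pseudocount was 0.1 and 0 when genes needed a mean of 5 TPM, which both genes miss, and 1 to 2 when 1 library was left out. The ratio of summed levels, 1.08 as reported, ran from 1.06 to 1.11. With the replicate block, the counts were 8 higher and 1 lower, and it changed no call. For same-numbered libraries, the labels name no batch of their own, and their deviations correlated at 0.0162 over all genes tested. The titles of all 4 libraries end in the letter B, whose meaning is not given. Of the values for named genes, 373 kept their sign and their side of the threshold and 7 changed sign, all from log2 changes near 0. These were AT1G36730 at -0.034 after quantile normalization, -0.0183 after median rescaling and -0.031 to 0.0595 over the fits that left out 1 library, EIF(ISO)4G1 at -0.0046 after quantile normalization and -0.0384 to 0.127 over those fits, and EIF4B1 at -0.112 to 0.0269 over those fits. The causes were not tested. Depth is unknown, and with 2 libraries a genotype, changes of the size seen in most members were not called here.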

Other observations

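Initiation factor genes whose descriptions lack the wording were looked at after the values of the members were known. EIF(ISO)4E, the plant isoform of the cap-binding protein, had 97.69 and 91.64 TPM in jmj28-2, against 92.71 and 81.40 TPM in Col-0, which made it more abundant than any eIF4E member. TIF4A-2, a helicase gene close to EIF4A1, had 94.13 and 87.08 TPM in jmj28-2, against 85.87 and 86.98 TPM in Col-0. EIF4B2 had 25.76 and 26.88 TPM in jmj28-2, against 23.50 and 26.13 TPM in Col-0. The SUI1 homologues differed in direction. AT4G27130 had 82.40 and 69.97 TPM in jmj28-2, against 67.69 and 60.28 TPM in Col-0, and AT1G54290 had 18.79 and 17.36 TPM in jmj28-2, against 18.86 and 20.41 TPM in Col-0. With limma, 0 of these 5 genes were called, 0 had an unadjusted p under 0.05, and the median log2 change was 0.08.

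The initiation factors of chloroplasts and mitochondria, which are of bacterial type, were also looked at after values were known. Of 5 tested genes 2 were higher and 3 lower in jmj28-2, and their sum was 388.9 and 385.5 TPM in jmj28-2, against 405.7 and 393.7 TPM in Col-0. FUG1, the chloroplast factor IF-2, had 169.09 and 162.78 TPM in jmj28-2, against 176.55 and 178.40 TPM in Col-0 (log2 change -0.10, SE 0.0531, limma adjusted p = 0.487). IF3-1, for mitochondria, had 8.20 and 7.71 TPM in jmj28-2, against 6.83 and 6.77 TPM in Col-0 (log2 change 0.20, SE 0.0937, limma adjusted p = 0.426). With limma, 0 of the 5 were called and 0 had an unadjusted p under 0.05.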
